A study of Mus musculus with 6 samples.

Results

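Interferon-stimulated genes are the genes that cells switch on when interferon, the secreted alarm signal of virus infection, binds its receptor. The 33 genes described here are standard mouse members of that programme and were taken by symbol. For 30 of the 33 the array held a probe set annotated to that gene alone, out of 19937 genes measured in this way. Isg15 and Gbp2 share their probe sets with another annotated gene (Gm9706 and Gbp2b), Ifi44 has no named probe set here, and no value is given for these 3.

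The values come from 6 whole-transcript arrays, each of the RNA of 1 tumour. The tumours grew from MASE2 cells, ascites cells of a tgCAG-LS-TAg mouse, in which adenovirus with Cre (AdCre) given into the ovarian bursa switched on SV40 large and small T antigens in the ovarian surface epithelium (OSE). That donor mouse had itself received 17β-estradiol (E2), and both groups of tumours derive from this 1 cell population. The hosts were SCID mice, which lack mature T and B cells but keep myeloid and natural killer cells. They received the cells together with a pellet of E2 (3 tumours) or placebo (3 tumours), and tumours were taken once the mice were unwell. The sources used here do not give the age or sex of the hosts, the pellet dose or the days of growth. The arrays of a group are described as biological replicates. Levels are log2 values, so a difference of 1 is a doubling of signal, and every difference below is E2 minus placebo.

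Type I interferons (the alpha and beta families and their relatives) signal through the receptor Ifnar1/Ifnar2 and Jak kinases to Stat2, which joins Irf9 in the complex ISGF3. ISGF3 binds a promoter sequence called the interferon-stimulated response element (ISRE). The genes behind it block the entry, translation, replication and release of viruses, sense viral nucleic acid, or damp the response again. In tumours the same programme can run without virus, from interferon made by tumour or immune cells or from nucleic acid in the cytosol.

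To show the element, promoter stretches are printed for the 6 genes of smallest limma p-value whose RefSeq promoter window holds the core of the ISRE. The core searched for was GAAA, any 2 bases, then GAAA, or its reverse complement, TTTC, any 2 bases, then TTTC. Each stretch is on the gene's own strand, reads 5′ to 3′, starts 30 bases before the first core (or, in Eif2ak2, upstream of the start), ends 30 bases after the transcription start, and has the core in capitals.
Rsad2: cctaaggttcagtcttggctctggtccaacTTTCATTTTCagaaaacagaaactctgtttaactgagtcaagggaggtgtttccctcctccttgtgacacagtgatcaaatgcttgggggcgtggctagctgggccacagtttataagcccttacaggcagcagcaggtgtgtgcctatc
Eif2ak2: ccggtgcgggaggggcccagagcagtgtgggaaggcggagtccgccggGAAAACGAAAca
Trim30a: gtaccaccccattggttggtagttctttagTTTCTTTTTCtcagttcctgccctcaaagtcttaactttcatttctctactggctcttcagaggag
Oas3: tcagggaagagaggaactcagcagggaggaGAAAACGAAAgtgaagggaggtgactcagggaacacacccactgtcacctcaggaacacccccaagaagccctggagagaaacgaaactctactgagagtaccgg
Oas1a: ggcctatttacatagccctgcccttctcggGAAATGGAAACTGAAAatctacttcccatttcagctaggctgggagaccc
Ifit3: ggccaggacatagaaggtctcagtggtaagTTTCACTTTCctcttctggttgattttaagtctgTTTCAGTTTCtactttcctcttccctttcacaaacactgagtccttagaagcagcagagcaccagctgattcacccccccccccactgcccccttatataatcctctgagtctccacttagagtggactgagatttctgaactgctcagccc
On GRCm38.p6 these are chr12:26456423-26456602 for Rsad2, chr17:78882543-78882602 for Eif2ak2, chr7:104465164-104465259 for Trim30a, chr5:120777630-120777764 for Oas3, chr5:120907496-120907575 for Oas1a and chr19:34583343-34583558 for Ifit3. Ifit3 is on the plus strand and the others are on the minus strand.

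The core began 120 bases before the start in Rsad2, 75 in Oas3 and 36 in Trim30a. Ifit3 held it at 156 and again at 122 bases before the start. In Oas1a a pair of overlapping cores began 20 and 14 bases before the start, and in Eif2ak2 the core lay behind the start, from transcribed base 19. Over both strands of the windows from 250 bases before to 50 after the start, 13 of the 24 interferon-stimulated genes with a RefSeq window held at least 1 core (54.2%), against 1079 of all 27025 genes (3.99%). Per window of 300 bases this was 14 of 31 (45.2%) against 1131 of 32851 (3.44%). The core was found on both sides of the E2 comparison, in 4 of the 7 genes with a window and a positive difference and in 7 of the 14 with a negative one. Usp18, Oas2, Ifi27, Parp14 and Mx1 are among the 9 without an entry. These letters are not in any window of Irf1, Irf7, Irf9, Ifi35, Ifi44, Ifit2, Isg20, Oasl1, Oasl2, Samhd1 or Xaf1.

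Greb1, an estrogen-induced gene named in the study's title, was at 4.88, 5.39 and 4.87 with placebo and 8.44, 8.42 and 8.53 with E2, a rise of 3.41 (SE 0.16, limma adjusted p = 0.00131). Placebo array 3 stood apart from the rest. Its Pearson correlation with the others across genes was 0.857 to 0.865, where the other 5 arrays correlated at 0.960 to 0.994. All 19 markers of intestinal epithelium were highest on it, with a summed linear signal of 33321 against 491 to 566 on placebo arrays 1 and 2 and 456 to 573 on the E2 arrays. The 15 mesothelial and ovarian surface markers, those of the labelled tissue, had summed signals of 5642 to 6861 with placebo and 1431 to 1750 with E2, and 2 of the 15 fell on 6 arrays (0 without E2 array 1) and 11 without placebo array 3. Of the 12 ovarian stromal and granulosa markers, 7 rose on 6 arrays, 8 without that array and 3 to 6 without any other single array, the fewest without E2 array 3. Each result on the interferon-stimulated genes is therefore given with and without placebo array 3, a choice made after the array was seen to differ.

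On all 6 arrays, 0 of the 30 interferon-stimulated genes passed an adjusted p under 0.05 in limma, in either direction. Of all genes, 1.06% were called higher and 0.326% lower. At an unadjusted p under 0.05, 5 of the 30 were higher (16.7%) and 9 lower (30%), against 10.4% and 6.16% of all genes. The groups did not overlap for 15 of the 30. Irf9, Usp18, Eif2ak2, Ifi27 and Xaf1 were higher on every E2 array than on every placebo array (5 of 30, 16.7%, against 14.9% of all genes). Irf7, Zbp1, Oas1a, Oas2, Oas3, Oasl1, Oasl2, Mx1, Rsad2 and Parp14 were lower on every E2 array (10 of 30, 33.3%, against 11.4%). Each of these 15 has an exact two-sided permutation p of 0.10, the smallest that 3 arrays against 3 can give. The median difference of the 30 was −0.16 (range −1.03 to 0.96), where the median of all genes was −0.01. In whole tumours, fewer cells of a type and less RNA per cell cannot be told apart.

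Without placebo array 3, which leaves 2 placebo arrays against 3 E2 arrays, 10 of the 30 genes passed the test. Usp18 and Ifi27 rose (6.67% of the 30, against 6.4% of all genes). Zbp1, Oas2, Oasl1, Ifit2, Ifit3, Rsad2, Trim30a and Parp14 fell (26.7%, against 5.21%). The other 20 did not pass, and the median was −0.14 against −0.01 for all genes. Over all genes 1276 were then higher and 1039 lower, or 1840 and 938 with the arrays centred on their median, where 4 of the 30 were called higher and 7 lower. With 1 further array left out, each in turn, Usp18, Ifi27, Ifit3 and Trim30a passed all 5 times. Oas2 passed 3 times, Rsad2 2 times, Oasl1, Parp14 and Ifit2 1 time each, and Zbp1 0 times. For 7 of the 10 called genes, 2 higher and 5 lower, the omitted array lay on the same side of the E2 arrays as the other placebo arrays. For Ifit3 and Trim30a it lay within the E2 range. For Ifit2 it lay below every E2 array, on the opposite side from the other placebo arrays. When the 6 arrays were kept but weighted by their fit, placebo array 3 got a weight of 0.149 against 1.14 to 1.9 for the others. Under these weights 2 of the 30 were called higher, Usp18 and Ifi27, against 5.15% of all genes. The 6 called lower were Ifit3, Irf7, Oas2, Parp14, Rsad2 and Trim30a, against 3.81% of all genes. Irf7 was not among the 10 called without placebo array 3, and of those 10 Zbp1, Oasl1 and Ifit2 were not called with weights. A trended, robust variance on equal weights called 0.

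**Figure D1:**
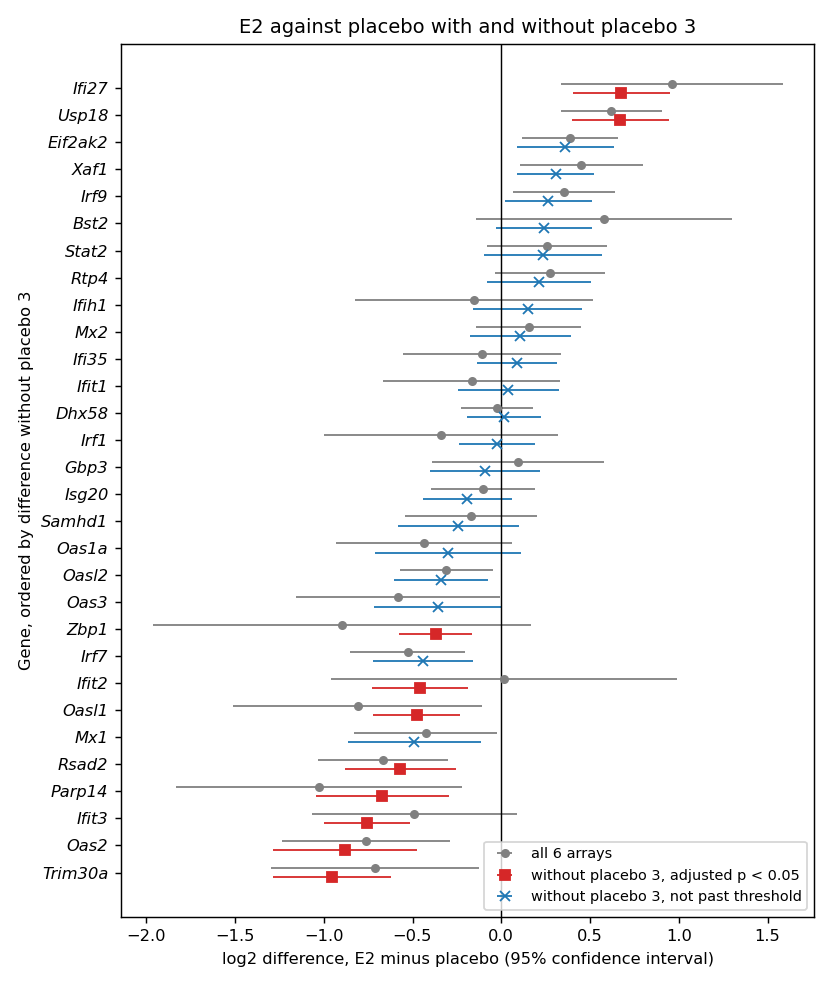
E2 minus placebo difference of each of the 30 interferon-stimulated genes, on the log2 scale with its 95% interval, on 6 arrays (grey) and without placebo array 3 (red squares where the adjusted p was under 0.05, blue crosses where not). Ifi27 and Usp18 are the red squares to the right of 0, and 8 red squares lie to the left.

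Among replicates, the median range of the 30 genes over the 3 placebo arrays was 0.53 (largest 1.6, Zbp1), but between placebo arrays 1 and 2 alone it was 0.15 (largest 0.59, Oas2), and over the 3 E2 arrays it was 0.30 (largest 0.60). Placebo array 3 lay more than 0.5 above the mean of the other placebo arrays for 8 genes (Irf1, Ifih1, Zbp1, Oas3, Oasl1, Ifit1, Parp14 and Ifi35) and more than 0.5 below it for 6 (Ifit2, Ifit3, Gbp3, Bst2, Trim30a and Ifi27). Of the 30, 12 were highest and 9 lowest on that array, where 5565 and 6571 of all 19937 genes were. Set against the same mean, E2 arrays 1 and 2 each had 9 genes more than 0.5 below and 2 more than 0.5 above, while E2 array 3 had 4 below and 3 above.

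**Figure D2:**
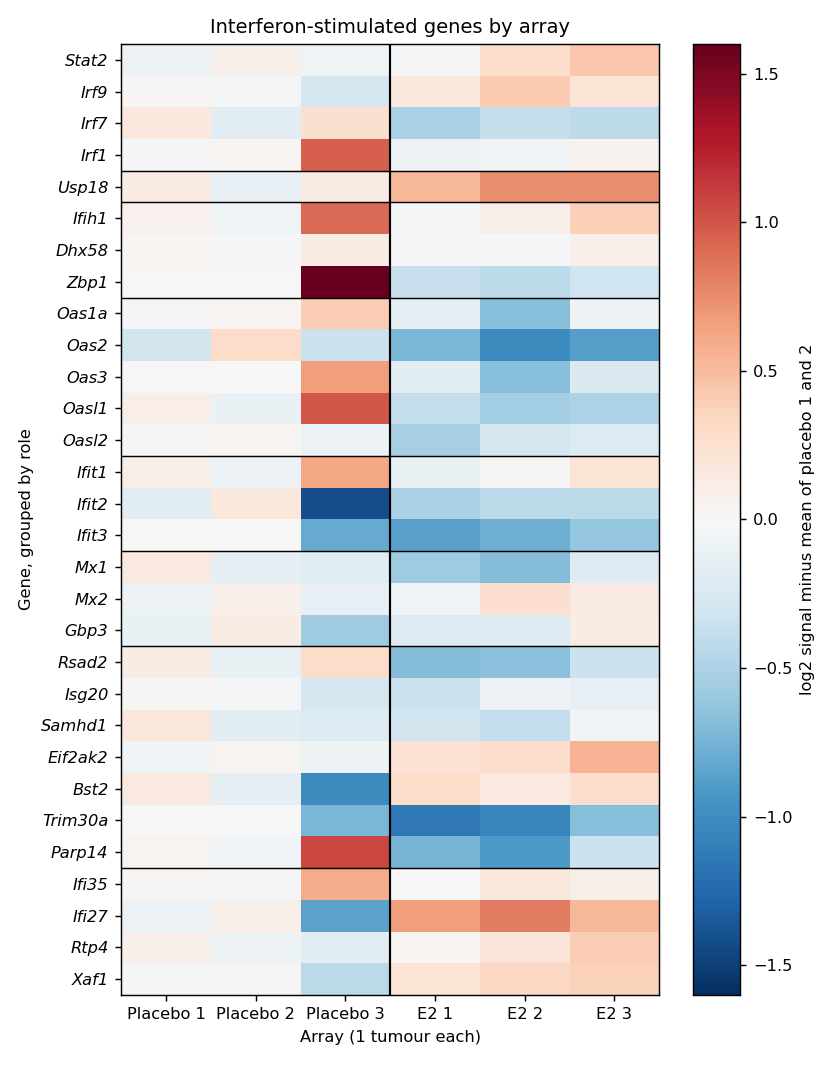
Log2 level of 30 interferon-stimulated genes (rows, grouped by role) on the 6 arrays (columns), less the mean of placebo arrays 1 and 2. Placebo array 3 holds both deep high and deep low cells, 8 genes above 0.5 and 6 below −0.5. The 5 Oas genes shown are lower on the E2 arrays than on the placebo arrays.

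Among the signal transducers and transcription factors, Stat2 and Irf9 had positive and the feed-forward factor Irf7 a negative difference. None of them passed the test on 6 equally weighted arrays or without placebo array 3. Irf9, the DNA-binding member of ISGF3, was at 6.52, 6.47 and 6.23 with placebo and 6.66, 6.91 and 6.71 with E2. The means were 6.41 ± 0.15 against 6.76 ± 0.13 (SD, n = 3), a difference of 0.35 (SE 0.12, limma adjusted p = 0.226), and the lowest E2 array was above the highest placebo array. Stat2, its partner, was at 6.84, 7.0 and 6.86 with placebo and 6.90, 7.21 and 7.37 with E2, with means of 6.90 ± 0.09 against 7.16 ± 0.24 (SD, n = 3) and a difference of 0.26 (SE 0.14, limma adjusted p = 0.418). The Stat2 groups overlapped, since E2 array 1 lay below placebo array 2. Leaving out placebo array 3 gave 0.23 (SE 0.14, limma adjusted p = 0.378) for Stat2 and 0.27 (SE 0.11, limma adjusted p = 0.164) for Irf9. Irf7, the factor that amplifies interferon alpha production, was at 7.75, 7.41 and 7.84 with placebo and 7.06, 7.19 and 7.17 with E2. All 3 E2 arrays were below all placebo arrays, with means of 7.67 ± 0.23 against 7.14 ± 0.07 (SD, n = 3), a difference of −0.53 (SE 0.13, limma adjusted p = 0.135) and, without placebo array 3, −0.44 (SE 0.12, limma adjusted p = 0.056). With array weights on 6 arrays Irf7 passed, at −0.47 (limma adjusted p = 0.0486). Irf1, which responds to interferon gamma as well, was at 6.54, 6.61 and 7.53 with placebo and 6.50, 6.53 and 6.63 with E2. Its difference of −0.34 (adjusted p = 0.561) rested on placebo array 3, which was 0.95 above the other placebo arrays, and without it the difference was −0.02 (adjusted p = 0.921).

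Usp18 removes Isg15 from proteins and blocks the type I receptor, so it damps the response of which it is part. It was at 6.49, 6.24 and 6.52 with placebo and 6.90, 7.11 and 7.11 with E2, and every E2 array was above every placebo array. The means were 6.42 ± 0.15 against 7.04 ± 0.12 (SD, n = 3) and the difference was 0.62 (SE 0.12, limma adjusted p = 0.0708). Usp18 rose by 0.67, 1.59-fold (SE 0.12, 95% interval 0.40 to 0.94, limma adjusted p = 0.0104) without placebo array 3. It passed as well in each of the 9 alternatives run on those 5 arrays, those with a further array left out included.

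Of the 3 genes of the 30 grouped here as sensors of viral nucleic acid, 1 fell without placebo array 3. Further sensors are counted below with the genes that induce interferon. Zbp1, which binds left-handed nucleic acid and can start cell death, was at 5.54, 5.53 and 7.12 with placebo and 5.16, 5.12 and 5.22 with E2. The E2 arrays lay between 5.12 and 5.22 while placebo array 3 was 1.59 above the other placebo arrays, which made the means 6.07 ± 0.92 against 5.17 ± 0.05 (SD, n = 3) and the difference −0.90 (SE 0.44, limma adjusted p = 0.373). Without that array Zbp1 fell by 0.37, 1.29-fold (SE 0.09, 95% interval −0.58 to −0.16, limma adjusted p = 0.0349), a call that was also lost when the arrays were centred or quantile-normalised again. Ifih1 (MDA5), the cytosolic receptor of long double-stranded RNA, was at 6.39, 6.25 and 7.22 with placebo and 6.29, 6.42 and 6.70 with E2. Its difference was −0.15 (adjusted p = 0.806) with placebo array 3 and 0.15 (adjusted p = 0.564) without it. Dhx58 (LGP2), which tunes the same receptors, kept within 5.48 to 5.63 on every array, and its difference was −0.02 (95% interval −0.23 to 0.18, adjusted p = 0.908).

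All 5 oligoadenylate synthetase genes among the 30 were lower on every E2 array than on every placebo array, as were 11.4% of all genes. These enzymes, or in the Oas-like genes their relatives, sense double-stranded RNA, and the active ones make the messenger that switches on RNase L. Of the 5, 4 had an unadjusted p under 0.05 (6.16% of all genes did so with a negative difference). The median of the 5 was −0.58 on 6 arrays and −0.36 without placebo array 3. Oas2 and Oasl1 fell when that array was left out, and the other 3 did not pass. Oas1a, Oas2 and Oas3 are neighbours on chromosome 5 with related sequences, so cross-hybridisation between the Oas1 genes in particular cannot be told apart from Oas1a signal. Oas1b and Oas1c, which are not among the 30, were not lower on 6 arrays, and their groups overlapped. They differed by 0.12 (limma adjusted p = 0.827) and 0.10 (limma adjusted p = 0.593). Without placebo array 3 their differences were −0.13 (limma adjusted p = 0.584) and 0.07 (limma adjusted p = 0.737).

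Oas2 was at 5.41, 6.0 and 5.36 with placebo and 4.98, 4.68 and 4.82 with E2. Placebo array 2 was the highest and placebo array 3 close to placebo array 1, so the difference of −0.76 (SE 0.19, limma adjusted p = 0.137) between 5.59 ± 0.35 against 4.82 ± 0.15 (SD, n = 3) did not rest on the array that stood apart. Without it Oas2 fell by 0.88, 1.84-fold (SE 0.17, 95% interval −1.28 to −0.47, limma adjusted p = 0.0172). Oasl1, which restrains the translation of Irf7, was at 6.67, 6.46 and 7.56 with placebo and 6.19, 6.02 and 6.06 with E2. The means were 6.90 ± 0.59 against 6.09 ± 0.09 (SD, n = 3), a difference of −0.81 (SE 0.29, limma adjusted p = 0.246), and placebo array 3 was the highest. Without that array Oasl1 fell by 0.48, 1.39-fold (SE 0.11, 95% interval −0.72 to −0.23, limma adjusted p = 0.0263).

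Oas3, the largest of the enzymes, was at 5.19, 5.21 and 5.87 with placebo and 5.03, 4.52 and 4.97 with E2, with means of 5.42 ± 0.39 against 4.84 ± 0.28 (SD, n = 3) and a difference of −0.58 (SE 0.24, limma adjusted p = 0.299). Oas1a was at 6.15, 6.22 and 6.59 with placebo and 6.04, 5.50 and 6.11 with E2, with means of 6.32 ± 0.24 against 5.88 ± 0.33 (SD, n = 3) and a difference of −0.44 (SE 0.20, limma adjusted p = 0.357). In both, E2 array 2 was the lowest and placebo array 3 the highest, and without the latter the differences were −0.36 (SE 0.16, limma adjusted p = 0.204) and −0.30 (SE 0.18, limma adjusted p = 0.353). Oasl2, a relative with ubiquitin-like repeats, was at 7.45, 7.51 and 7.39 with placebo and 6.96, 7.21 and 7.26 with E2, with means of 7.45 ± 0.06 against 7.14 ± 0.16 (SD, n = 3) and a difference of −0.31 (SE 0.11, limma adjusted p = 0.239). Here placebo array 3 was the lowest of its group and still above all E2 arrays, and the difference without it was −0.34 (SE 0.11, limma adjusted p = 0.106).

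The Ifit genes encode tetratricopeptide proteins that bind viral RNA lacking host cap marks, and lie beside each other on chromosome 19. Ifit3 was at 5.52, 5.54 and 4.73 with placebo and 4.66, 4.75 and 4.92 with E2. Placebo arrays 1 and 2 lay above all E2 arrays and placebo array 3 within their range, so the means of 5.27 ± 0.46 against 4.78 ± 0.13 (SD, n = 3) differed by −0.49 (SE 0.24, limma adjusted p = 0.37). Ifit3 fell by 0.76, 1.69-fold (SE 0.10, 95% interval −1.0 to −0.52, limma adjusted p = 0.00374) without placebo array 3, the smallest adjusted p among the 30, and it passed in each of the 9 alternatives run on those arrays. Its near copy Ifit3b may share probes with it. Ifit2 was at 6.60, 6.93 and 5.35 with placebo and 6.25, 6.34 and 6.34 with E2, so that placebo array 3 was −1.42 from its group and below every E2 array. On 6 arrays the means were 6.29 ± 0.83 against 6.31 ± 0.05 (SD, n = 3) and the difference 0.02 (SE 0.40, limma adjusted p = 0.988). Without that array Ifit2 fell by 0.46, 1.37-fold (SE 0.12, 95% interval −0.73 to −0.19, limma adjusted p = 0.0439). Ifit1 was at 5.77, 5.58 and 6.29 with placebo and 5.56, 5.69 and 5.89 with E2 and differed by −0.17 (adjusted p = 0.703), or 0.04 (adjusted p = 0.895) without placebo array 3, the highest of the 6.

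Mx1, a dynamin-like GTPase that traps influenza virus components in the nucleus, was at 4.84, 4.52 and 4.49 with placebo and 4.11, 3.99 and 4.47 with E2. All E2 arrays were below all placebo arrays, with means of 4.62 ± 0.19 against 4.19 ± 0.25 (SD, n = 3) and a difference of −0.43 (SE 0.16, limma adjusted p = 0.282). E2 arrays 1 and 2 were below the lower quartile of genes (4.22 to 4.39, used here as a mark of low signal), so the E2 level is near the bottom of the scale. Mx1 was the 1 member with such values, and its difference without placebo array 3 was −0.49 (SE 0.16, limma adjusted p = 0.0992). Mx2 was at 4.69, 4.86 and 4.64 with placebo and 4.70, 5.05 and 4.9 with E2, a difference of 0.15 (adjusted p = 0.557), and Gbp3, a guanylate-binding GTPase that attacks membranes around intracellular microbes, at 6.09, 6.34 and 5.65 with placebo and 6.01, 6.01 and 6.34 with E2, a difference of 0.09 (adjusted p = 0.838). With placebo array 3 left out they differed by 0.11 (adjusted p = 0.666) and −0.09 (adjusted p = 0.747).

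Of the 7 other antiviral effectors, 5 had negative and 2 positive differences, and 3 fell without placebo array 3. Rsad2 (viperin), which makes a chain-terminating nucleotide, was at 5.83, 5.60 and 6.01 with placebo and 5.03, 5.04 and 5.37 with E2. No E2 array reached the lowest placebo array, and the spread within both groups was alike, with means of 5.81 ± 0.20 against 5.15 ± 0.20 (SD, n = 3) and a difference of −0.67 (SE 0.15, limma adjusted p = 0.108). Rsad2 fell by 0.57, 1.48-fold (SE 0.14, 95% interval −0.88 to −0.25, limma adjusted p = 0.0331) without placebo array 3, and it did not pass after repeated quantile normalisation. Parp14, an ADP-ribosyl transferase, had the largest difference of the 30. It was at 6.49, 6.4 and 7.52 with placebo and 5.70, 5.53 and 6.10 with E2, with means of 6.80 ± 0.62 against 5.78 ± 0.29 (SD, n = 3) and a difference of −1.03 (SE 0.33, limma adjusted p = 0.211). Without placebo array 3, which was 1.07 above its group, Parp14 fell by 0.67, 1.59-fold (SE 0.16, 95% interval −1.04 to −0.30, limma adjusted p = 0.0341).

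Trim30a, a ring-finger protein that curbs Toll-like receptor signals, was at 6.68, 6.67 and 5.95 with placebo and 5.53, 5.64 and 6.0 with E2. Placebo arrays 1 and 2 nearly coincided above all E2 arrays while placebo array 3 was within the E2 range, and the means of 6.44 ± 0.42 against 5.72 ± 0.25 (SD, n = 3) differed by −0.71 (SE 0.24, limma adjusted p = 0.229). Without that array Trim30a fell by 0.95, 1.94-fold (SE 0.14, 95% interval −1.29 to −0.62, limma adjusted p = 0.00527), the largest fall of the 30, and it too passed in each of the 9 alternatives. Its relatives Trim30b and Trim30d may share probes with it. Eif2ak2 (PKR), the kinase that halts translation on double-stranded RNA, was at 6.75, 6.83 and 6.71 with placebo and 7.03, 7.08 and 7.35 with E2. Every E2 array was above every placebo array, with means of 6.76 ± 0.06 against 7.15 ± 0.17 (SD, n = 3), a difference of 0.39 (SE 0.11, limma adjusted p = 0.173) and, without placebo array 3, 0.36 (SE 0.12, limma adjusted p = 0.0986). Bst2 (tetherin), which holds budding virus at the cell surface, was at 7.51, 7.21 and 6.34 with placebo and 7.65, 7.51 and 7.64 with E2 and differed by 0.58 (adjusted p = 0.391). Placebo array 3 was −1.02 from its group, and without it the difference was 0.24 (adjusted p = 0.257). Isg20, an exonuclease, differed by −0.10 (adjusted p = 0.688), and Samhd1, which depletes deoxynucleotides, by −0.17 (adjusted p = 0.607). With 5 arrays these were −0.19 (adjusted p = 0.33) and −0.24 (adjusted p = 0.371).

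Ifi27, a small mitochondrial and nuclear membrane protein, had the largest positive difference. It was at 7.61, 7.79 and 6.85 with placebo and 8.37, 8.53 and 8.23 with E2, with all E2 arrays above all placebo arrays. The means were 7.42 ± 0.50 against 8.38 ± 0.15 (SD, n = 3) and the difference was 0.96 (SE 0.26, limma adjusted p = 0.153). Without placebo array 3, −0.86 from its group, Ifi27 rose by 0.67, 1.6-fold (SE 0.12, 95% interval 0.40 to 0.95, limma adjusted p = 0.0101), and the call was lost only under repeated quantile normalisation among the 9 alternatives. Xaf1, a pro-apoptotic zinc-finger protein, was at 5.69, 5.73 and 5.28 with placebo and 5.93, 6.04 and 6.08 with E2. The E2 arrays lay above all placebo arrays, with means of 5.57 ± 0.25 against 6.02 ± 0.08 (SD, n = 3), a difference of 0.45 (SE 0.14, limma adjusted p = 0.204) and 0.31 (SE 0.09, limma adjusted p = 0.0777) without placebo array 3. Rtp4, a chaperone of receptors, differed by 0.27 (adjusted p = 0.354), and Ifi35, a partner of Nmi, by −0.11 (adjusted p = 0.79). With 5 arrays these were 0.21 (adjusted p = 0.355) and 0.09 (adjusted p = 0.649).

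**Figure D3:**
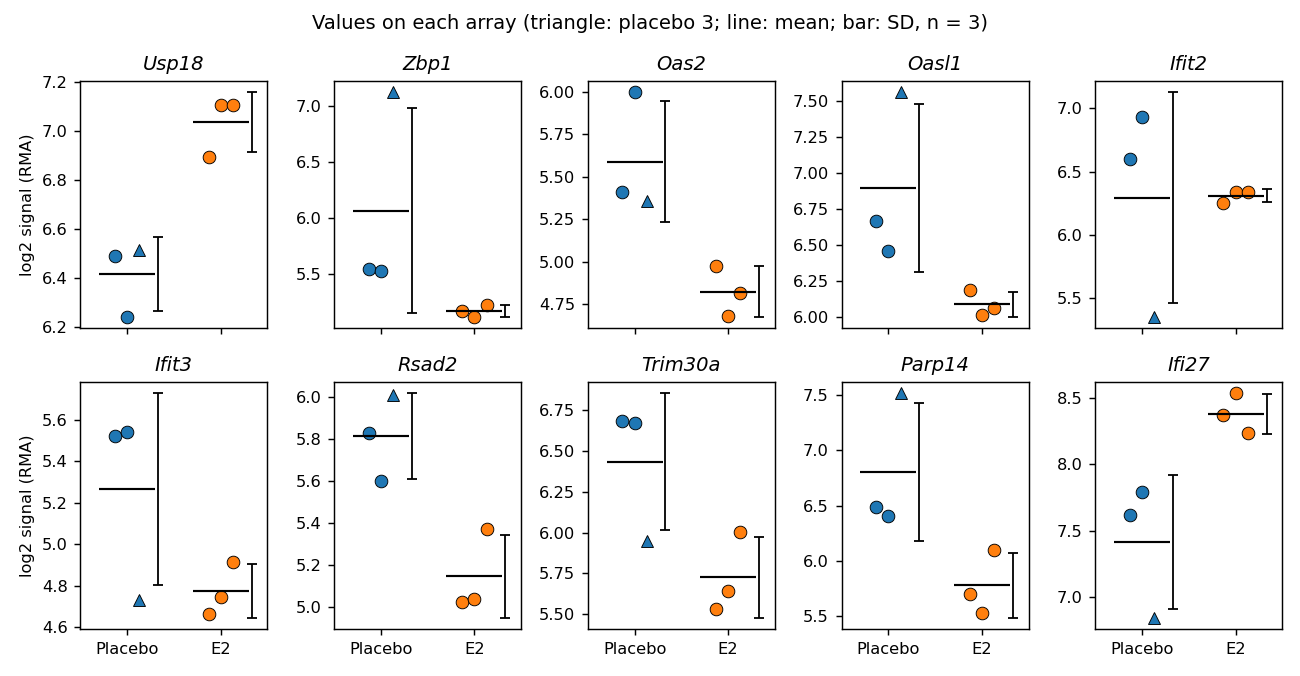
Log2 levels of the 10 interferon-stimulated genes called without placebo array 3, by array, with that array as a triangle; lines are group means and bars the SD over 3 arrays. Usp18 and Ifi27 are higher on all E2 arrays, and the triangle lies within or below the E2 points for Ifit2, Ifit3 and Trim30a.

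The rest of the pathway was read from lists of its genes. Of 17 ligand genes, 14 were measured, 1 rose on 6 arrays, none fell, and 6 were below the lower quartile on every array. The rise was that of Ifnk, interferon kappa, an epithelial type I interferon, at 3.89, 4.08 and 3.76 with placebo and 4.76, 4.69 and 5.08 with E2, with means of 3.91 ± 0.16 against 4.85 ± 0.21 (SD, n = 3). Its fitted difference was 0.93 (SE 0.14, limma adjusted p = 0.0458). The 3 placebo values were below the lower quartile of their arrays. With each raised to it the mean of Ifnk was 1.42-fold higher with E2, a value given without an interval. Without placebo array 3 its adjusted p was 0.00684, and leaving out any other single array ended the call (largest adjusted p = 0.177). Ifnb1 differed by −0.18 (adjusted p = 0.616) and was below the lower quartile on 5 arrays. Ifng differed by −0.02 (adjusted p = 0.948) and Ifne, the interferon of the reproductive tract, by −0.03 (adjusted p = 0.889), both below the lower quartile on all 6.

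Of 11 receptor and Jak-Stat genes, 10 were measured and 0 passed on 6 arrays in limma (0 higher and 1 lower at an unadjusted p under 0.05). Ifnar1 was at 7.28, 7.37 and 7.0 with placebo and 7.32, 7.42 and 7.33 with E2, a difference of 0.14 (adjusted p = 0.589). On 5 arrays, Ifngr1, a chain of the interferon gamma receptor, fell by 0.48 (limma adjusted p = 0.0263) and Stat3 rose by 0.56 (adjusted p = 0.0416). Their differences on 6 arrays were −0.82 (adjusted p = 0.251) and 0.37 (adjusted p = 0.419). Of 12 feedback inhibitors, all measured, 0 passed on 6 arrays (1 higher and 1 lower unadjusted). On 5 arrays, Irf2, which competes for the same promoter element, fell by 0.43 (adjusted p = 0.0308).

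Among the genes that sense nucleic acid and induce interferon, calls without placebo array 3 ran in both directions. Of 21, 17 were measured and 0 passed on 6 arrays. At an unadjusted p under 0.05, 3 were higher and 3 lower (17.6% each, against 10.4% and 6.16% of all genes). Without placebo array 3, 2 rose (11.8%, against 6.4% of all genes) and 7 fell (41.2%, against 5.21%). Tlr7, an endosomal receptor of single-stranded RNA, was at 5.87, 5.70 and 4.37 with placebo and 4.57, 4.29 and 4.59 with E2, and without placebo array 3 it fell by 1.30 (limma adjusted p = 0.000734). Unc93b1, which carries such receptors to the endosome, fell by 1.30 (adjusted p = 0.000975) and Irf5, a factor downstream of them, by 0.93 (adjusted p = 0.00111). Sting1, the adaptor of cytosolic DNA sensing, was at 7.18, 7.38 and 7.53 with placebo and 7.98, 8.11 and 8.34 with E2. It was higher on every E2 array, differed by 0.78 (SE 0.14, limma adjusted p = 0.0648) on 6 arrays and rose by 0.86 (adjusted p = 0.00511) without placebo array 3. On 6 arrays the differences of Tlr7, Unc93b1 and Irf5 were −0.83 (adjusted p = 0.367), −0.95 (adjusted p = 0.209) and −0.58 (adjusted p = 0.399).

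A further 55 measured genes (of 60 listed) that type I interferon induces had a median difference of −0.11, and 0 passed on 6 arrays (6 higher and 8 lower unadjusted). Without placebo array 3, 2 of the 55 rose (3.64%) and 11 fell (20%). The shares were 6.67% and 26.7% for the 30 genes above, and 6.4% and 5.21% for all genes. Of the 55, those of smallest p fell, Ifi44l by 1.21 (limma adjusted p = 0.00109), Gm4951 by 0.95 (adjusted p = 0.00112), Slfn5 by 1.32 (adjusted p = 0.00271) and the chemokine Ccl5 by 0.61 (adjusted p = 0.00647). The 8 measured GTPases induced mainly by interferon gamma (of 17 listed) had a median of −0.46, 7 of 8 were negative, and 3 fell without placebo array 3, namely Iigp1 by 0.88 (adjusted p = 0.00631), Gbp4 by 0.86 (adjusted p = 0.00826) and Gbp9 by 0.68 (adjusted p = 0.0114). The 3 are 37.5% of the 8, against 5.21% of all genes. On 6 arrays 0 of the 8 passed, with 0 higher and 6 lower unadjusted (75%, against 6.16% of all genes).

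Interferon gamma also raises antigen presentation. Of 7 measured class II genes (of 9), 5 fell on 6 arrays (against 0.326% of all genes), with a median of −1.82. Without placebo array 3, 5 fell (71.4%, against 5.21% of all genes). Cd74, the invariant chain, fell by 2.20 (SE 0.16, limma adjusted p = 0.00574). Leaving out E2 array 1 ended all 5 calls on 6 arrays (0 of 7 called, Cd74 adjusted p = 0.0673), and without any other single array 3 to 5 of the 7 fell. Of 10 measured class I genes (of 12), 0 passed on 6 arrays (2 higher and 2 lower unadjusted), and without placebo array 3 the proteasome activator genes Psme1 and Psme2 rose while B2m fell. The median of the class I genes was −0.25 on 6 arrays and −0.02 without that array. The difference between the classes and the interferon-stimulated genes was not tested.

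Macrophages express many interferon-stimulated genes, and their markers moved in the same comparison. All 22 were measured and none was below the lower quartile on every array. Their summed linear signal was 5627 to 5944 on placebo arrays 1 and 2, 2940 on placebo array 3 and 1997 to 2655 on the E2 arrays. Ptprc (CD45) and Ctss fell on 6 arrays, by 1.11 (limma adjusted p = 0.0388) and 1.04 (adjusted p = 0.0324), calls that ended when any single array but placebo array 3 was left out (largest adjusted p = 0.210 and 0.161). Without that array 18 of the 22 fell (81.8%, against 5.21% of all genes), with a median of −1.04. Adgre1 (F4/80) was at 7.78, 7.50 and 5.38 with placebo and 5.82, 5.18 and 5.58 with E2. On placebo array 3, 10 of the 22 markers were above all E2 arrays, such as Lyz2 (9.43 against 8.24 to 8.71), 9 were within the E2 range, as Adgre1 was, and 3 were below it. The part of macrophage RNA in the differences of the interferon-stimulated genes was not tested.

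Other host cells were read in the same way. Of 8 measured plasmacytoid dendritic cell markers (of 10), the professional makers of type I interferon, 0 passed on 6 arrays (1 higher and 0 lower unadjusted). With 5 arrays Tcf4, a transcription factor that other cell types express as well, rose by 1.2 (limma adjusted p = 0.000368), the 1 call among the 8, and on 6 arrays it differed by 1.54 (adjusted p = 0.0708). Of 15 measured natural killer, T and B cell markers (of 16), 5 were below the lower quartile on all arrays, 0 passed on 6 arrays (1 higher and 0 lower unadjusted), and the summed signal was 283 to 289 on placebo arrays 1 and 2, 390 on placebo array 3 and 280 to 289 with E2. On the 5 arrays 1 of the 15 rose, Eomes by 0.74 (limma adjusted p = 0.0205). Of 16 endothelial markers, 15 had a negative difference (median −0.35). On every E2 array 11 were lower than on every placebo array (68.75%, against 11.4% of all genes). At an unadjusted p under 0.05, 9 were lower (56.25%, against 6.16% of all genes). None fell at an adjusted p under 0.05 on 6 arrays and 1 rose (Kdr, limma adjusted p = 0.0136), a call that ended without placebo array 1 or any E2 array (largest adjusted p = 0.0994). On the 5 arrays 4 fell (25%, against 5.21% of all genes) and 1 rose (6.25%, against 6.4%).

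**Figure D4:**
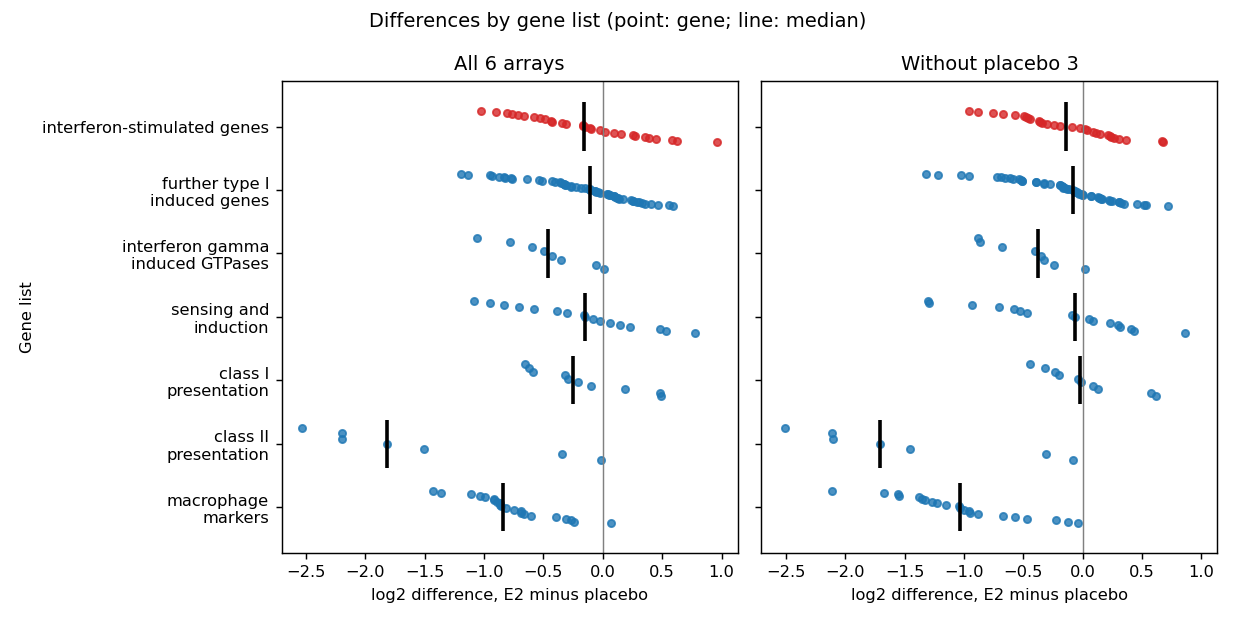
E2 minus placebo log2 differences of single genes (points) in the interferon-stimulated genes, related interferon lists, class I and class II presentation and macrophage markers, with list medians as bars, on 6 arrays and without placebo array 3. The interferon-stimulated genes spread on both sides of 0 around a median of −0.16, or −0.14 without that array, while class II genes and macrophage markers lie mostly below 0.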

How the data were processed

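RNA of 6 tumours was hybridised to 1 array each, and groups and replicate numbers came from the sample titles. Each probe set has 1 deposited value per array, a log2 intensity that the authors derived by RMA according to the submitters' processing notes. The sources used here do not name its software, version or annotation. RMA equalises the distributions of the arrays and compresses differences near background, so tissue mixed into 1 sample can shift that array's other genes. No detection calls were used here.

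Of 34760 probe sets, 21640 carried 1 gene symbol in the platform annotation, 1321 several, and 11799 were not listed. Of the 21640, 21553 matched RefSeq (GRCm38.p6). The probe set of highest mean stood for a gene with several (954 genes, among the members Irf1), which left 19937 genes. No filter was applied. The lower quartile of genes on each array (4.22 to 4.39) served as a mark of low signal, chosen after the data were seen. The E2 minus placebo difference was fitted in limma 3.58.1 (lmFit, then eBayes; R 4.3.3) without covariates, two-sided, with Benjamini-Hochberg adjustment over all genes and a threshold of 0.05. The scripts were tested on simulated data. Promoter sequences and names are from RefSeq.

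The members, the lists and the tests were chosen with earlier results of these data known. All measured members were named. All 6 values were given for members called on 6 arrays or without placebo replicate 3, the 12 of smallest p, those whose groups did not overlap, and Stat2, Irf7, Irf9 and Usp18. Of each other list at most 4 genes were to be named, those called (on 6 arrays or without placebo replicate 3) or fixed members of the pathway. Oas1b and Oas1c were named beyond this rule, as relatives of the Oas members. Alternatives were leaving out each array, a replicate block, filters on dim genes, the mean of probe sets, repeated quantile normalisation, median centring, a trended robust variance and array weights.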

Additional observations from a re-analysis of the deposited data

How the results depend on the processing

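Of the single arrays, only placebo replicate 3 changed the calls among the 30 when left out. Over all genes other arrays mattered too, and without 1 E2 array 31 to 37 genes were higher and 0 to 7 lower. Leaving out single arrays gave 31 to 1276 genes higher and 0 to 1039 lower (211 and 65 on 6 arrays), and 0 to 2 interferon-stimulated genes higher and 0 to 8 lower, the upper ends without placebo replicate 3, while their median went from −0.26 to −0.077. Array weights gave 1026 and 760 genes, and 2 and 6 of the 30, and arrays centred on their median gave 342 genes higher. The cause was not tested. With a replicate block 10 genes were higher and 0 lower. Same-numbered arrays did not deviate together from their group means (r = −0.029, −0.182 and −0.130). Placebo replicate 3 enters each placebo mean, so these values cannot decide whether the numbers pair the tumours. Among uncalled members, 6 changed sign. Leaving out single arrays moved Ifih1 from −0.34 to 0.15, Dhx58 from −0.058 to 0.017, Ifit1 from −0.32 to 0.040, Ifit2 from −0.46 to 0.33, Gbp3 from −0.093 to 0.25 and Ifi35 from −0.22 to 0.089. Array weights gave 0.060 for Ifih1, −0.37 for Ifit2, −0.089 for Gbp3 and 0.055 for Ifi35, centring gave 0.022 for Dhx58, and quantile normalisation −0.047 for Ifit2. Of 415 values of single members under alternatives, 384 kept direction and side of the threshold. A further 17 kept direction and passed where they had not. The other 14 reversed, and of these Ifit2 without placebo replicate 3 also passed. The filter at the median kept 25 of the 30.

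Alternatives chosen after seeing the data were run without placebo replicate 3. Repeated quantile normalisation left 1 member higher and 8 lower (Rsad2, Zbp1 and Ifi27 lost, Irf7 and Oasl2 gained), and centring gave 4 higher and 7 lower (Eif2ak2 and Xaf1 gained, Zbp1 lost). Over all genes, 1276 higher and 1039 lower became 1182 and 1195 or 1840 and 938. A further array left out gave 2 (without E2 replicate 2) to 6 members lower and 2 higher each time. Where this left 1 placebo array, its spread was taken to be that of the E2 arrays. A trended robust variance and a filter on dim genes each gave 2 and 8. With no detection calls, levels near the lower quartile, as for Mx1 and Ifnk, have no settled fold.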

Other observations

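Irf1, the 1 member with a further single-gene probe set, was at 5.0, 5.05 and 4.97 with placebo and 4.98, 4.71 and 4.65 with E2 by that probe set, a difference of −0.23 (limma adjusted p = 0.373), where placebo replicate 3 did not stand apart as it did in the brighter one.

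The core of the gamma-activated site (TTC, any 3 bases, GAA), a promoter element of the interferon gamma response, was in the promoter windows of 8 of the 24 interferon-stimulated genes with an entry (33.3%), against 2582 of 27025 genes (9.55%). Per window this was 8 of 31 (25.8%) against 2726 of 32851 (8.30%). As with the ISRE core, a match is a description of letters and not of a bound site.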
